A study of Drosophila melanogaster with 12 samples.

Results

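The flies described here are the control flies of a study of chronic circadian misalignment (CCM) in Drosophila melanogaster, compared between week 3 and week 2 of their light schedule. All were of the iso31 strain, a laboratory line with an isogenic background, and were collected within a day of leaving the pupal case. They lived singly in tubes on sucrose and agar, a food without protein, under 12 h of light and 12 h of dark. Each sample was RNA of whole flies, 10 males and 10 females pooled, taken in the first hours of the light phase, and 3 samples (A, B and C) were sequenced at week 3 and 3 at week 2. These 6 samples were chosen by their labels from the 12 of the series. The other 6 come from CCM flies, which were kept under 14 h of light and 14 h of dark for the same weeks and are used only for comparison. Since all samples of a week share that week of collection, age cannot be told apart from the collection. In the lifespan experiment of the study some control flies died between these weeks, so survival to week 3 is mixed with age too. Since males and females were pooled, a change in either sex or in the balance of their RNA enters a single value.

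In a whole fly the RNA of many tissues is mixed. The ovary, with its nurse cells that replicate their DNA many times over and load the oocyte with maternal mRNA, contributes much of the transcript pool of a female. The fat body secretes yolk proteins that the growing oocytes take up, and egg production depends on dietary protein. The testis and the accessory gland of the male express large sets of genes that few other tissues use. Among long-lived somatic tissues, the compound eye is rich in the rhodopsin and phototransduction proteins of the rhabdomere, while muscle, gut and fat body express distinct sets of structural, digestive and metabolic genes. Heat shock proteins, metallothioneins, glutathione S-transferases and antimicrobial peptides are known in flies as groups whose transcripts respond to stress and often change in old adults.

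The 6 libraries held between 17842804 and 22105717 counted reads, and between 13455 and 13685 of the 14413 features had at least 1 count. A level is given as counts in every 1000000 of the normalized library (counts per 1000000, CPM), so that it can be compared between samples of a gene but not between genes of different length. In the smallest library 3 counts correspond to 0.168 per 1000000 reads before normalization, and this floor allows for counting error alone. Within a week no pair of samples was alike enough to be the same library: the chi-square divided by its degrees of freedom was 22.4 to 29.8 among week 3 samples and 28.2 to 101 among week 2 samples. Week 2 B and week 2 C differed most, and the results below that rest on single libraries are given with and without them. Samples also differed by gene length. The deviation of a sample from the mean had a correlation with log2 exonic length across 11982 features of -0.21, -0.43 and -0.35 in week 3 A, B and C, against 0.23, -0.08 and 0.57 in week 2 A, B and C, so that counts of long genes were lower relative to short ones in the week 3 samples. Each list of genes is therefore given a second time from a fit with offsets that follow gene length, and the part of this trend in the results was not tested beyond that fit.

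Of 12200 features tested, 3821 (31.3%) had an adjusted p under 0.1, of which 1706 (14.0%) were higher and 2115 (17.3%) lower at week 3. The adjusted p is that of the quasi-likelihood F test in edgeR after Benjamini-Hochberg correction and is called the edgeR adjusted p below. The median log2 fold change (log2FC, week 3 over week 2) of all features was -0.03. Decreases were larger than increases. Among the features that fell, 984 did so by more than a log2FC of 1, against 155 among those that rose, and the medians were -0.97 and 0.58. The week 3 and week 2 values did not overlap in 5352 features (43.9%), which is the background for every statement on overlap. In the same way 14.0% higher and 17.3% lower are the background for every count of a list below. The number of calls depended on each library. It was 1315 without week 2 A, 4953 without week 2 B, 2528 without week 2 C, 1317 without week 3 A, 2387 without week 3 B and 1598 without week 3 C, and 940 features, 318 higher and 622 lower, were called in the full comparison and in all 6 of these. Of the 147 genes past the threshold whose values are given below, 98 were called in all 6. In the fit with length offsets 1623 features (13.3%) were higher and 1694 (13.9%) lower.

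**Figure D1:**
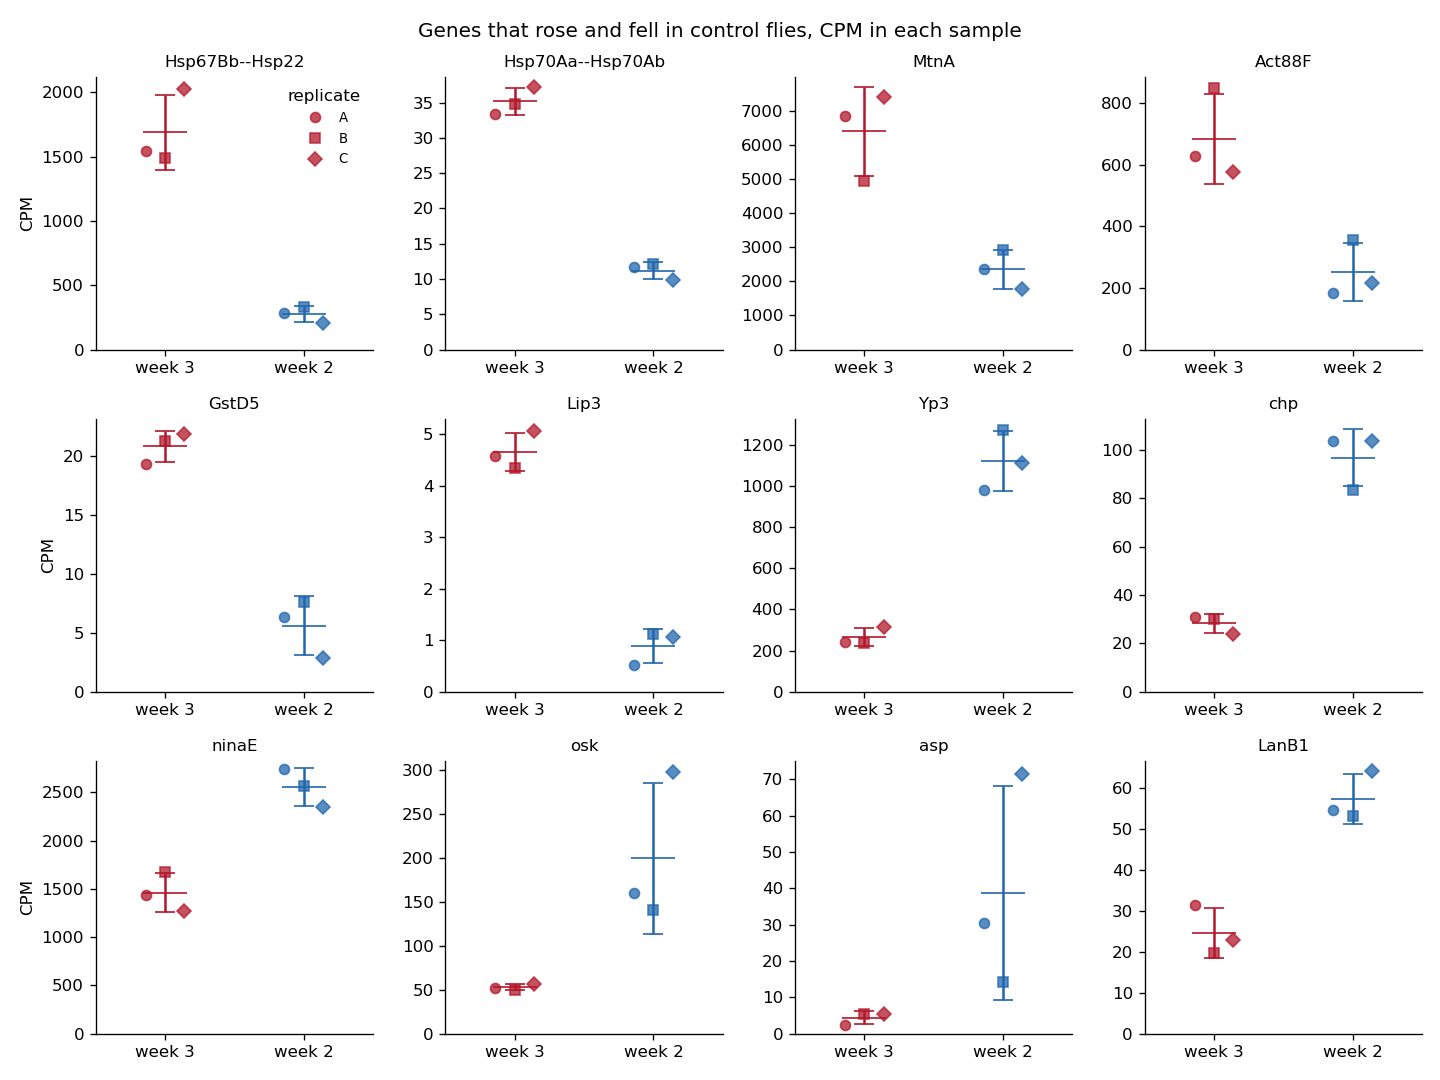
Levels of 12 genes in CPM (linear axes from 0), with 1 point per sample (circle A, square B, diamond C), the mean as a bar and the SD as whiskers, week 3 in red on the left and week 2 in blue on the right of each panel. The 6 genes from Hsp67Bb--Hsp22 to Lip3 were higher in every week 3 sample and the 6 from Yp3 to LanB1 lower in every week 3 sample. The whiskers of osk and asp are wide at week 2, where replicate C lay far above A and B.

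All 3 yolk protein genes, which encode the proteins that the fat body and the follicle cells make for the oocyte, fell at week 3. Yp3 had 242, 236 and 316 CPM at week 3, against 985, 1275 and 1112 CPM at week 2 (log2FC -2.09, standard error 0.17). Yp2 had 318, 352 and 415 CPM at week 3, against 765, 963 and 788 CPM at week 2 (log2FC -1.21, standard error 0.15). Yp1 had 1951, 1401 and 2396 CPM at week 3, against 3589, 4822 and 4759 CPM at week 2 (log2FC -1.20, standard error 0.26). In none of the 3 did the weeks overlap, and each stayed past the threshold in all 6 fits that left out a library and with length offsets. In a bulk sample, fewer cells of a type and less RNA per cell cannot be told apart, here and in every tissue list below.

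Genes of the oocyte and of maternal mRNA fell with them. Of 30 tested, 19 were lower and 1 higher, with a median log2FC of -1.37, beside 17.3% and 14.0% and a median of -0.03 over all features. With length offsets 21 were lower and the median was -1.30. The defining marker osk (oskar, 3R from 8935126 to 8938395), which organizes the germ plasm, had 51.9, 49.7 and 56.9 CPM at week 3, against 160.2, 141 and 298 CPM at week 2 (log2FC -1.92, standard error 0.34, edgeR adjusted p = 0.027). All week 3 values lay close together below the lowest at week 2. For orb, an RNA-binding regulator of oocyte translation, the values were 25.8, 34.4 and 31.5 CPM at week 3, against 96.2, 83.3 and 159 CPM at week 2 (log2FC -1.88). The yolk protein receptor gene yl had 43.002, 96.3 and 103 CPM at week 3, against 258, 217 and 509 CPM at week 2 (log2FC -2.02, standard error 0.55). Week 3 A was the lowest and week 2 C the highest for yl, but the weeks did not overlap. The largest falls in the list were those of the receptor tyrosine kinase gene tor, with a log2FC of -2.68, and of fs(1)M3, which acts with it in patterning the embryo's ends, with -2.57. For bcd, the anterior determinant and a defining marker, the values were 3.67, 23.4 and 35.8 CPM at week 3, against 42.8, 28.6 and 78.6 CPM at week 2, and with overlapping groups its log2FC of -1.26 did not pass the test (edgeR adjusted p = 0.21). The exception was grk, the EGF receptor ligand of the oocyte, which rose with 55.8, 57.9 and 39.9 CPM at week 3, against 35.8, 32.5 and 33.2 CPM at week 2 (log2FC 0.60, standard error 0.17). Without week 3 A only 9 genes of the list were called lower, and without week 2 A, week 3 A or week 3 B 0 were called higher. The other defining markers nos and vas were not analysed here.

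The summed level of the oocyte list was 948, 1341 and 1509 CPM at week 3, against 2607, 1804 and 4499.8 CPM at week 2. Week 2 C was highest by far, and the highest week 3 sample lay below the lowest week 2 sample. Of 21 eggshell genes only 4 passed the filter on low counts, and 0 were called by edgeR, also in every fit that left out a library, with 0 at an unadjusted p under 0.05 and 0 called by DESeq2. The defining markers Cp36 and Vm26Aa, which encode a chorion and a vitelline membrane protein, were at or below 0.380 CPM in all 6 samples. The chorion gene Cp15 had 0.509, 5.26 and 14.6 CPM at week 3, against 6.96, 10.6 and 18.9 CPM at week 2, with overlapping groups (log2FC -0.85, edgeR adjusted p = 0.47).

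The piRNA pathway, which silences transposons in the gonads through small RNAs bound by Argonaute proteins of the Piwi class, lost 22 of 32 tested members, with 0 higher and a median log2FC of -0.96. Length offsets left 21 lower, 1 higher and a median of -0.96. Among the Piwi class proteins, piwi had 12.8, 10.6 and 10.999 CPM at week 3, against 38.8, 29.8 and 65.1 CPM at week 2 (log2FC -1.96, standard error 0.34, edgeR adjusted p = 0.027). For aub the values were 7.01, 7.81 and 8.56 CPM at week 3, against 19.3, 16.7 and 31.6 CPM at week 2 (log2FC -1.53, standard error 0.28). AGO3 had 12.3, 16.7 and 17.1 CPM at week 3, against 26.3, 17.3 and 53.8 CPM at week 2 and a log2FC of -1.08 (edgeR adjusted p = 0.081). The 3 week 3 values of piwi and aub lay close together and far below week 2, while those of AGO3 reached almost to the lowest week 2 value. The helicase gene armi, needed for loading Piwi, had 7.63, 5.86 and 6.44 CPM at week 3, against 23.4, 21.5 and 42.6 CPM at week 2 (log2FC -2.13), and rhi, a protein that marks the source clusters in chromatin, a log2FC of -1.21. The number lower was 10, 14, 7, 10 and 11 without week 2 A, week 2 C and week 3 A, B and C.

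DNA replication and cell cycle genes had the lowest median of all lists in the fit without length offsets, -1.39, with 38 of 49 lower and 0 higher, and 42 lower with length offsets (median -1.33). All 49 log2FC were negative. The falls covered the origin recognition and MCM helicase subunits that start replication, with log2FC of -2.30 for Orc2, -2.40 for Mcm10 and -1.68 for Mcm2. The condensins, which compact chromosomes, were lower too, with -2.21 for SMC2 and -2.15 for Cap-G. Of the mitotic regulators, CycA had 32.5, 68.4 and 78.2 CPM at week 3, against 169, 93.5 and 342 CPM at week 2 (log2FC -1.76, standard error 0.66) and stg, the Cdc25 phosphatase that triggers mitosis, a log2FC of -1.55. In both, week 2 C was the highest and week 3 A the lowest sample, and for stg the lowest week 2 value fell within the week 3 values. The spindle checkpoint gene rod had 2.77, 2.87 and 3.19 CPM at week 3, against 11.4, 8.76 and 20.7 CPM at week 2 (log2FC -2.21, standard error 0.36), with little spread at week 3. Cyclin E did not pass, with 4.07, 28.04 and 39.2 CPM at week 3, against 74.9, 37.4 and 158 CPM at week 2 (log2FC -1.93, edgeR adjusted p = 0.105). The summed level of the list was 659, 1078 and 1239 CPM at week 3, against 2206, 1429 and 4053 CPM at week 2. Week 2 samples spread over a wider range than the distance from their lowest to the highest week 3 sample, and without week 2 A, week 3 A and week 3 B the number called lower was 23, 14 and 24. Week 2 C and week 3 A were also the libraries with the highest and the lowest oocyte sum.

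The largest falls of all, among called features with no overlap and at least 5 CPM at one of the weeks, belonged to the same kinds of genes. The spindle pole gene asp (3R from 24753849 to 24760513) had 2.32, 5.32 and 5.499 CPM at week 3, against 30.4, 14.3 and 71.6 CPM at week 2 (log2FC -3.15, standard error 0.75, edgeR adjusted p = 0.027). Marf1, an RNA regulator of the female germ line, had 2.37, 6.51 and 7.94 CPM at week 3, against 35.8, 12.8 and 88.1 CPM at week 2 (log2FC -3.03, standard error 0.93). They were followed by RecQ4, a helicase of replication, the kinesin gene Klp61F of the spindle, the citron kinase gene sti of cytokinesis, PolA1, the catalytic subunit of DNA polymerase alpha, the germ cell gene Gcna, the piRNA cluster gene del, and tor and fs(1)M3, with log2FC from -3.01 for RecQ4 to -2.57 for fs(1)M3. For each of these 10 genes the week 2 values spread more than the week 3 values on the CPM scale.

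**Figure D2:**
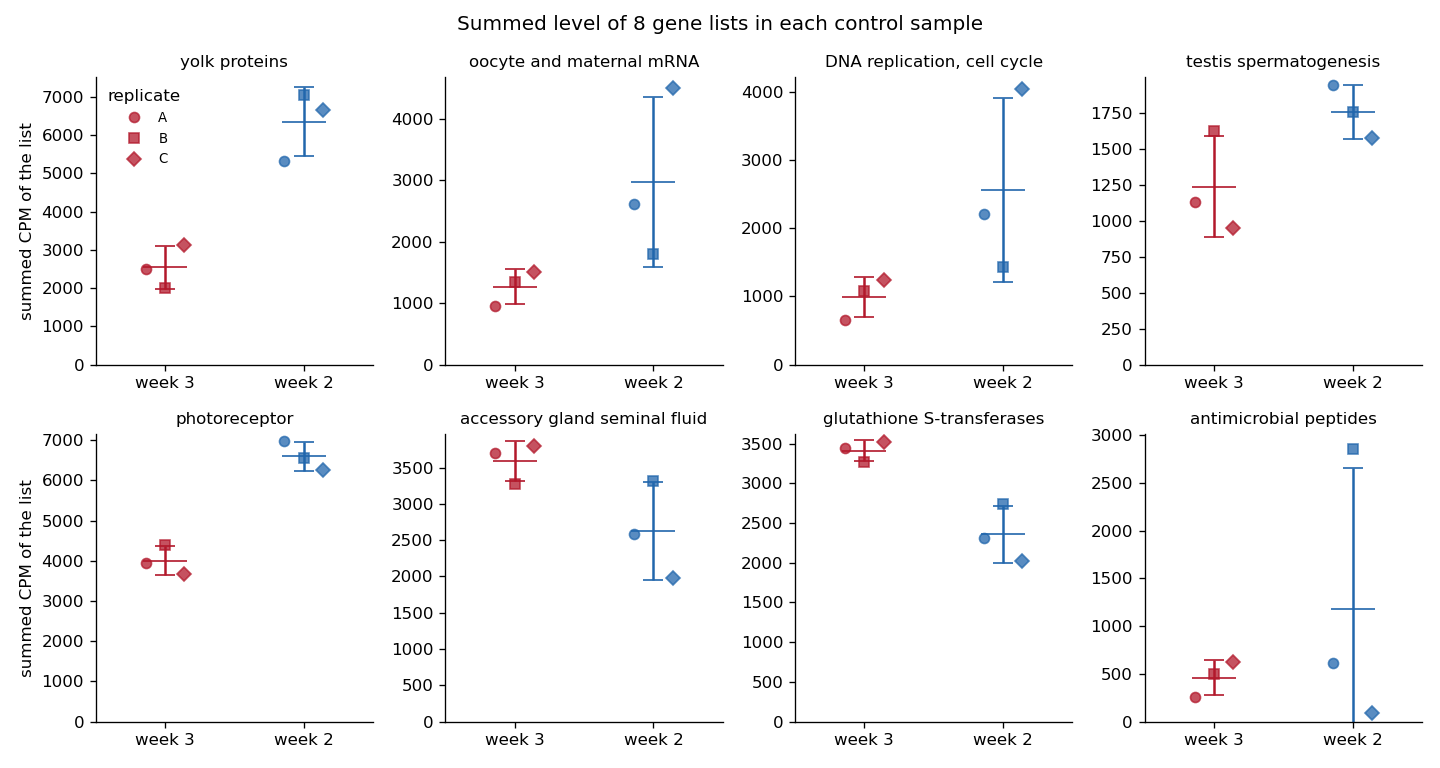
Summed level (CPM, linear axes from 0) of 8 gene lists in each control sample, with the mean as a bar and the SD as whiskers (cut at 0 for the antimicrobial peptides), week 3 in red left of week 2 in blue. Yolk protein and photoreceptor sums were lower and glutathione S-transferase sums higher in all week 3 samples. The oocyte and replication sums share a high week 2 C, and the antimicrobial sum is dominated by week 2 B.

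Testis genes fell less. Of 73 tested spermatogenesis genes 14 were lower and 0 higher, a share of calls close to the 17.3% over all features, but the median log2FC was -0.52 and 71 of the 73 values were negative. With length offsets 26 were lower (median -0.63). The post-meiotic gene w-cup had 8.14, 6.35 and 4.19 CPM at week 3, against 23.02, 13.1 and 23.99 CPM at week 2 (log2FC -1.69, standard error 0.37), and fzo, which fuses the mitochondria of the spermatid, 1.13, 1.68 and 1.37 CPM at week 3, against 3.69, 2.99 and 3.41 CPM at week 2 (log2FC -1.27, standard error 0.14). Of the defining markers, dj, a sperm mitochondrial and tail protein, had 21.5, 22.9 and 15.9 CPM at week 3, against 33.6, 28.1 and 24.8 CPM at week 2 (log2FC -0.52, edgeR adjusted p = 0.089). The weeks did not overlap for these 3 genes. The testis tubulin gene betaTub85D had 44.98, 83.05 and 33.2 CPM at week 3, against 86.2, 71.2 and 63.9 CPM at week 2 (log2FC -0.46, edgeR adjusted p = 0.3), and the sperm tail gene Mst87F a log2FC of -0.21 (edgeR adjusted p = 0.37), both with overlapping groups. With length offsets Mst87F was called lower (log2FC -0.45, edgeR adjusted p = 0.061). The count was 3 without week 2 A, without week 3 A or without week 3 C, and 23 without week 3 B.

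Seminal fluid genes of the accessory gland went the other way. These encode peptides and proteins passed to the female at mating. Of 55 tested, 17 were higher and 0 lower, with a median log2FC of 0.62 and 52 positive values, and with length offsets 11 were higher (median 0.43). Acp26Aa, a defining marker that stimulates ovulation, had 31.8, 21.6 and 34.6 CPM at week 3, against 12.8, 19.7 and 10.5 CPM at week 2 (log2FC 1.03, standard error 0.33). Acp76A, a serpin of the seminal fluid, had 9.15, 7.76 and 8.31 CPM at week 3, against 2.93, 5.38 and 2.78 CPM at week 2 (log2FC 1.19, standard error 0.28). Week 2 B was the highest week 2 sample in both, and the weeks did not overlap. The other defining markers did not pass. Sex peptide (SP) had 13.2, 10.1 and 31.8 CPM at week 3, against 13.9, 23.3 and 6.57 CPM at week 2 and Acp36DE, needed for sperm storage, 30.5, 11.4 and 22.7 CPM at week 3, against 28.8, 36.5 and 40.5 CPM at week 2, and in both the weeks overlapped (log2FC 0.33 and -0.71, edgeR adjusted p = 0.65 and 0.14). The count rested on the libraries, with 1, 35, 6, 1 and 2 genes higher without week 2 A, week 2 B, week 2 C, week 3 A and week 3 C.

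Photoreceptor genes fell as a group. Of 37 genes 23 were lower and 0 higher (median log2FC -0.75), and 17 to 25 were lower when each library was left out. The summed level was 3936, 4386 and 3682 CPM at week 3, against 6982, 6557 and 6269 CPM at week 2, without overlap. Length offsets gave 19 lower, 1 higher and a median of -0.48. The adhesion protein gene chp (chaoptin, 3R from 31204180 to 31210730), which holds the microvilli of the rhabdomere together, had 30.9, 29.997 and 23.9 CPM at week 3, against 104, 83.5 and 104 CPM at week 2 (log2FC -1.78, standard error 0.16, edgeR adjusted p = 0.0099). The photoreceptor myosin gene ninaC had 93.5, 82.2 and 73.2 CPM at week 3, against 243, 199 and 234 CPM at week 2 (log2FC -1.44, standard error 0.13). In both, every week 3 value was under the lowest week 2 value by a wide margin. The inaF locus, which encodes small membrane proteins that work with the TRP channel, had as a merged feature 4.69, 4.99 and 4.88 CPM at week 3, against 15.2, 13.2 and 17.3 CPM at week 2 (log2FC -1.65).

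The phototransduction cascade fell at several steps. The rhodopsin Rh1 of the outer photoreceptors, encoded by ninaE (3R from 19886255 to 19888206), had 1438, 1674 and 1271 CPM at week 3, against 2741, 2564 and 2348 CPM at week 2 (log2FC -0.80, standard error 0.13, edgeR adjusted p = 0.027). The phospholipase C gene norpA had 35.1, 26.04 and 26.7 CPM at week 3, against 78.5, 48.8 and 129 CPM at week 2 (log2FC -1.55, standard error 0.43), and the channel gene trp 167, 203 and 169.9 CPM at week 3, against 334, 296 and 305 CPM at week 2 (log2FC -0.79, standard error 0.10). Weeks did not overlap in any of them. Both arrestins, which end the response of rhodopsin, were lower, with log2FC of -0.92 for Arr1 and -0.60 for Arr2. The scaffold gene inaD, which holds the signalling proteins together, had a log2FC of -0.93, the second channel gene trpl -0.89 and the calcium-binding protein gene Cpn -1.89. Of the 4 rhodopsins of the inner photoreceptors 1 passed the test. Rh4 of the R7 cells fell, with 55.8, 83.4 and 55.4 CPM at week 3, against 147, 153 and 121 CPM at week 2 (log2FC -1.11, standard error 0.22). Rh3, also of R7, had 179.6, 199.8 and 168 CPM at week 3, against 237, 204 and 194 CPM at week 2, and its log2FC of -0.22 did not pass (edgeR adjusted p = 0.24), nor did those of the R8 rhodopsin genes Rh5 (-0.20) and Rh6 (-0.21). With length offsets Rh3 was called lower (log2FC -0.35, edgeR adjusted p = 0.086), while Rh5 and Rh6 were not (edgeR adjusted p = 0.18 and 0.11). The differences between these genes were not tested.

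Neuronal and synaptic genes depended on the treatment of gene length. Of 47 tested, 5 were lower and 1 higher with a median log2FC of -0.32, while with length offsets 0 were lower and 7 higher with a median of 0.18. All but 1 of these genes are longer than the median of all features, 1911 bases. The neuronal marker elav had 34.9, 25.98 and 22.6 CPM at week 3, against 26.7, 21.5 and 37.8 CPM at week 2 (log2FC -0.04, edgeR adjusted p = 0.9), and with length offsets its log2FC was 0.73 (edgeR adjusted p = 0.025). The synaptic vesicle genes nSyb and Syt1 and the active zone gene brp had log2FC of -0.31, -0.84 and -0.85, and none passed (edgeR adjusted p = 0.19, 0.13 and 0.14). The adenylyl cyclase gene rut, known from learning mutants, fell with 28.1, 26.96 and 26.9 CPM at week 3, against 47.7, 39.9 and 55.6 CPM at week 2 (log2FC -0.80), without overlap, but with length offsets its log2FC was -0.08 (edgeR adjusted p = 0.69). Snap25, a SNARE protein of vesicle release, rose with 67.2, 53.8 and 42.5 CPM at week 3, against 39.9, 35.4 and 31.1 CPM at week 2 (log2FC 0.62, and 0.62 with length offsets). The number lower was 19 without week 2 B, 2 without week 3 B and 1 without any of the other 4 libraries.

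Neuropeptide genes, which are short, rose instead. Of 28 tested 12 were higher and 1 lower (median log2FC 0.58), and with length offsets 10 and 1 (median 0.45). Dh31, a peptide of brain and gut that acts on fluid balance and sleep, had 37.3, 27.9 and 29.4 CPM at week 3, against 17.2, 17.9 and 13.01 CPM at week 2 (log2FC 0.98, standard error 0.19). Tachykinin (Tk) had 47.2, 48.6 and 51.5 CPM at week 3, against 33.3, 31.7 and 25.5 CPM at week 2 (log2FC 0.70, standard error 0.12). The allatostatin B gene Mip had 14.9, 15.9 and 14.4 CPM at week 3, against 9.89, 9.21 and 8.04 CPM at week 2 (log2FC 0.74, standard error 0.09). Weeks did not overlap in these 3. The fall was that of Nplp3, annotated as a neuropeptide-like precursor, with 6.103, 5.15 and 8.44 CPM at week 3, against 18.98, 17.2 and 14.3 CPM at week 2 (log2FC -1.36, standard error 0.23). Peptides of water balance and stress were among the risers, with log2FC of 0.94 for leucokinin (Lk) and 0.87 for corazonin (Crz). Fewer neuropeptide genes were higher without week 2 A (4), week 2 C (6), week 3 A (3) or week 3 C (5). The glial transcription factor gene repo rose with 44.4, 41.8 and 35.9 CPM at week 3, against 28.3, 31.6 and 25.5 CPM at week 2 (log2FC 0.52), whereas the glial markers moody and alrm had log2FC of -0.01 and 0.09 and did not pass (edgeR adjusted p = 0.97 and 0.68). Of 9 glial genes 2 were higher and 0 lower, and 0 higher without week 2 A or without week 3 A.

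Muscle genes split. Of 30 sarcomere genes 12 rose (40%) and 5 fell (16.7%), beside 14.0% and 17.3% over all features (median log2FC 0.20). The actin gene of the indirect flight muscle, Act88F (3R from 15439969 to 15442177), had 627, 851 and 577 CPM at week 3, against 182, 357 and 216 CPM at week 2 (log2FC 1.44, standard error 0.34, edgeR adjusted p = 0.027). Another actin gene, Act57B, had 1326, 1658 and 1105 CPM at week 3, against 678, 934 and 640.1 CPM at week 2 (log2FC 0.86). Also higher were the troponin I gene wupA with a log2FC of 0.73, the myosin light chain gene Mlc2 with 0.59 and the tropomyosin gene Tm2 with 0.52. These 3 genes and Act57B were picked after their values were seen. In contrast, the myosin heavy chain gene Mhc had 282, 269 and 197 CPM at week 3, against 509.6, 415 and 541 CPM at week 2 (log2FC -0.97, standard error 0.20). Flightin (fln), a thick filament protein of the flight muscle, had 18.5, 16.7 and 16.5 CPM at week 3, against 36.2, 33.8 and 27.3 CPM at week 2 (log2FC -0.91, standard error 0.13). The weeks did not overlap in any of these genes.

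The split followed gene length in part. With length offsets 13 sarcomere genes were higher and 1 was lower (median 0.50). The falls of Mhc and of 3 other long genes, Strn-Mlck, Obsc and Actn, were then no longer past the threshold, with log2FC of -0.29, -0.07, -0.18 and -0.05. The gene still lower was fln, of 1300 bases, with -1.05 (edgeR adjusted p = 0.014). Act88F kept a log2FC of 1.35 (edgeR adjusted p = 0.022). The flight muscle troponin C gene TpnC4 had 40.1, 26.7 and 27.6 CPM at week 3, against 41.5, 42.9 and 23.5 CPM at week 2 and did not pass (log2FC -0.19, edgeR adjusted p = 0.59). The number of sarcomere genes higher was 6, 5 and 7 without week 2 A, week 3 A and week 3 B.

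**Figure D3:**
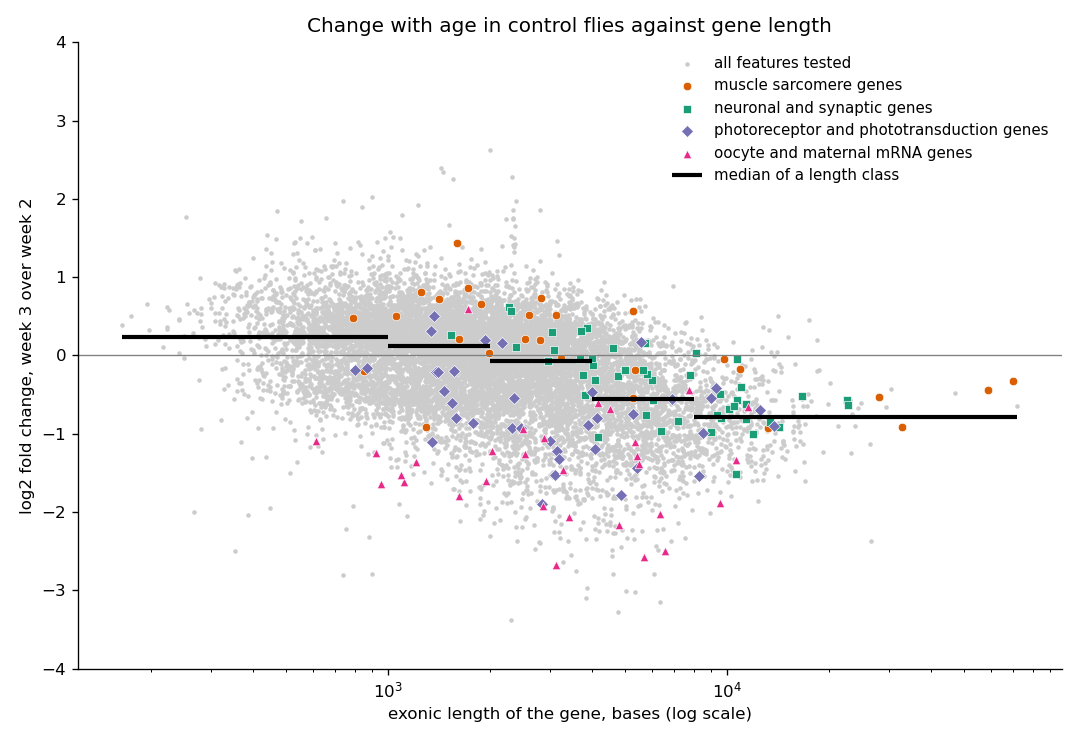
Log2FC of week 3 over week 2 against the exonic length of the gene (log axis, bases) for the 11982 tested features with a known length in grey, with 4 gene lists in colour and the median of each of 5 length classes as black lines. The medians go from 0.23 below 1000 bases to -0.78 from 8000 bases. Most oocyte genes lie below these lines, and neuronal genes lie near them.

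Digestive enzyme genes went in both directions. Of 57 tested 11 were higher (19.3%) and 8 lower (14.0%), near the 14.0% and 17.3% over all features. With length offsets 9 were higher and 8 lower, and the median log2FC was -0.02, against 0.17 without them. The alpha-glucosidase gene tobi had 419, 409 and 425 CPM at week 3, against 233, 237 and 247 CPM at week 2 (log2FC 0.81, standard error 0.03). The maltase gene Mal-A6 had 360.1, 420.4 and 353 CPM at week 3, against 218, 218 and 225 CPM at week 2 (log2FC 0.78), and the amylase gene Amy-p 1381, 1393 and 1680.2 CPM at week 3, against 846, 1217 and 1004 CPM at week 2 (log2FC 0.54, edgeR adjusted p = 0.061). Among the Jonah serine protease genes, Jon65Aii had 8.08, 13.4 and 15.2 CPM at week 3, against 28.5, 25.2 and 28.4 CPM at week 2 (log2FC -1.16), and Jon99Fii and Jon44E had log2FC of -0.78 and -1.25. Amy-p, Jon65Aii, Jon99Fii and Jon44E were picked after their values were seen, and no count was made by enzyme family. The defining marker Jon25Bi rose with 3.11, 2.604 and 4.87 CPM at week 3, against 1.57, 2.11 and 2.23 CPM at week 2 (log2FC 0.84, edgeR adjusted p = 0.094), a call that was lost with length offsets (edgeR adjusted p = 0.19). Copies of Amy and of Jon99F share reads, and parts of their counts are held in merged features. The lipase gene mag, a defining marker of the midgut, fell with 8.76, 10.2 and 12.7 CPM at week 3, against 21.4, 23.96 and 26.1 CPM at week 2 (log2FC -1.18, standard error 0.17), and Lip3, a lipase gene known to respond to starvation, rose with 4.58, 4.34 and 5.06 CPM at week 3, against 0.51, 1.11 and 1.05 CPM at week 2 (log2FC 2.39, standard error 0.22). The midgut protease gene Bace had a log2FC of 0.07 (edgeR adjusted p = 0.69). Leaving out week 2 A, week 2 C or week 3 A, B or C gave 4, 7, 6, 7 and 6 genes higher, and 5 lower without week 2 A or without week 3 B.

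Malpighian tubule genes had 4 of 7 higher and 0 lower, with log2FC of 0.61 for urate oxidase (Uro) and 0.45 for the potassium channel gene Irk3, but 0 in 5 of the 6 fits that left out a library and 5 without week 2 B. Oenocytes make the hydrocarbons that waterproof the cuticle, and 5 of 9 of their genes were higher and 0 lower (median 0.44, and 0.43 with length offsets). Desat1, which makes the double bonds of pheromones and other lipids, had 5354, 4652 and 5198 CPM at week 3, against 2505, 3787 and 2683 CPM at week 2 (log2FC 0.76, standard error 0.19). Cyp4g1, which forms the hydrocarbons in the last step, did not pass (log2FC 0.32, edgeR adjusted p = 0.23). The oenocyte count was 1, 2 and 3 without week 2 A, week 3 A and week 3 C. Of the haemolymph and fat body genes 4 of 9 were lower and 1 higher, and the lipoprotein genes among them, apolpp and Apoltp, were not called with length offsets, where their log2FC were -0.29 and 0.05. Only 2 of the 9 were lower without week 2 A or without week 3 C. The satiety gene fit, expressed in the fat body of the head, fell with 6.61, 6.78 and 7.56 CPM at week 3, against 14.1, 17.9 and 12.3 CPM at week 2 (log2FC -1.08, standard error 0.16).

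Haemocyte genes had 1 higher and 1 lower of 10. The clotting gene Hml had 62.1, 33.6 and 56.6 CPM at week 3, against 96.1, 77.02 and 80.02 CPM at week 2 (log2FC -0.73, and -0.03 with length offsets), and the phagocytosis receptor genes NimC1 and eater did not pass, with log2FC of 0.29 and -0.70 (edgeR adjusted p = 0.41 and 0.14). Cuticle proteins of the Cpr family, which bind chitin, passed the filter in 29 of 86 cases, and 6 rose and 2 fell. Cpr66D had 33.1, 29.8 and 27.1 CPM at week 3, against 8.11, 11.5 and 6.399 CPM at week 2 (log2FC 1.80, standard error 0.25), and Cpr72Ec 34.5, 45.8 and 66.1 CPM at week 3, against 142, 158 and 105 CPM at week 2 (log2FC -1.47, standard error 0.32). Both stood clear of overlap, in opposite directions. Odorant-binding protein genes had 5 of 33 higher (15.2%, near the 14.0% over all features) and 0 lower. Olfactory and gustatory receptor genes had 0 higher and 1 lower of 17 that passed the filter out of 156. The 6 higher Cpr genes became 3 without week 2 A, week 2 C or week 3 C, and odorant-binding protein genes had 0, 2, 0, 2 and 1 higher without week 2 A, week 2 C and week 3 A, B and C, with 3 lower without week 2 C.

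Of the stress-induced heat shock genes, Hsp22 and the Hsp70 copies rose. The small heat shock protein Hsp22 sits in the mitochondrial matrix, and its reads were assigned jointly to it and to Hsp67Bb. This merged feature had 1548, 1490.0 and 2028 CPM at week 3, against 285, 331 and 208 CPM at week 2, the largest increase of all called features with no overlap and at least 5 CPM at one of the weeks (log2FC 2.62, standard error 0.24, edgeR adjusted p = 0.0099). The reads specific to Hsp67Bb had a log2FC of -0.15. Of the 8 small heat shock features 2 were higher and 0 lower, the second being l(2)efl with 132, 186 and 145 CPM at week 3, against 81.2, 105 and 61.04 CPM at week 2 (log2FC 0.90). Hsp26 and Hsp27, which are also made in ovaries, had 32.4, 110.2 and 141 CPM at week 3, against 180.2, 97.2 and 343 CPM at week 2 and 19.4, 77.7 and 95.5 CPM at week 3, against 155, 73.1 and 298 CPM at week 2. Both were highest in week 2 C and lowest in week 3 A, as the oocyte sum was, and their log2FC of -1.13 and -1.45 did not pass (edgeR adjusted p = 0.18 and 0.13). A link between these levels and the ovary was not tested.

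The Hsp70 genes, stress-induced chaperones in near-identical copies, rose in 11 features that share reads with one another. Hsp70Aa--Hsp70Ab had 33.5, 34.9 and 37.2 CPM at week 3, against 11.7, 12.1 and 9.81 CPM at week 2 (log2FC 1.65, standard error 0.10, edgeR adjusted p = 0.0099). The merged feature of Hsp70Ba, Hsp70Bbb and Hsp70Bc had 10.5, 10.3 and 12.2 CPM at week 3, against 4.799, 4.55 and 3.24 CPM at week 2 (log2FC 1.39). With Hsp68, whose log2FC was 0.60, 12 of 29 cytosolic chaperone features were higher, and 3 were lower. Lower were Hsp83, the fly Hsp90, with 1381, 879.6 and 987 CPM at week 3, against 1531, 1363 and 1842 CPM at week 2 (log2FC -0.54), the co-chaperone gene Hsp110 with a log2FC of -0.68, and the heat shock factor gene Hsf with -0.59. For Hsp83 the weeks overlapped, and its call (edgeR adjusted p = 0.092) was lost with length offsets (edgeR adjusted p = 0.12). Hsp83 passed in 2 of the 6 fits that left out a library. The chaperonin subunits CCT1 to CCT7 had log2FC from -0.18 for CCT7 to 0.19 for CCT5, and none was called. The number of chaperone features lower was 0, 1, 1 and 0 without week 2 A, week 2 C, week 3 B and week 3 C.

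Of 34 glutathione S-transferase genes, whose enzymes couple glutathione to toxic and oxidized compounds, 16 were higher and 0 lower (median log2FC 0.46, with length offsets 10 higher and a median of 0.34). GstD5 had 19.3, 21.3 and 21.8 CPM at week 3, against 6.33, 7.597 and 2.82 CPM at week 2 (log2FC 1.90, standard error 0.40, edgeR adjusted p = 0.027). GstD1 had 1283, 1151 and 1234 CPM at week 3, against 723, 872 and 652 CPM at week 2 (log2FC 0.71, standard error 0.13). The summed level of the list was 3449.8, 3265 and 3518 CPM at week 3, against 2315, 2739 and 2016 CPM at week 2, and all week 3 samples were above week 2. The count was 4, 8, 3 and 5 without week 2 A, week 2 C, week 3 A and week 3 C. Neighbouring Gst genes are similar in sequence, and how the counting shared their reads was not tested.

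Cytochrome P450 genes had 19 of 77 higher and 2 lower (median 0.27), and with length offsets 15 higher and 3 lower (median 0.20). Cyp12c1 had 97.8, 106 and 87.8 CPM at week 3, against 50.5, 70.7 and 52.7 CPM at week 2 (log2FC 0.75) and Cyp6a9 99.8, 92.2 and 83.6 CPM at week 3, against 58.1, 62.4 and 50.4 CPM at week 2 (log2FC 0.69), without overlap. Among the antioxidant genes 7 of 24 were higher and 1 lower (median 0.23), and with length offsets 6 and 0 (median 0.07). The copper-binding metallothionein MtnA (3R from 9783407 to 9784370) had 6855, 4940.1 and 7406 CPM at week 3, against 2364, 2924 and 1782 CPM at week 2 (log2FC 1.44, standard error 0.27, edgeR adjusted p = 0.027). Catalase (Cat), which removes hydrogen peroxide, had 1447, 1288 and 1345 CPM at week 3, against 832, 1011 and 811 CPM at week 2 (log2FC 0.62, standard error 0.11). The superoxide dismutase Sod1 had a log2FC of 0.50, and cnc, the Nrf2 factor that drives many of these genes, of -0.65, which was 0.08 and not called with length offsets. Of the glucuronosyltransferase genes 3 of 29 were higher, which is 10.3% and below the 14.0% over all features, and 1 lower. The number higher was 5 without week 2 B, 0 without week 3 C and 1 without each of the other libraries. The P450 count was 3, 7, 4, 12 and 8 without week 2 A, week 2 C and week 3 A, B and C, and the antioxidant count 2, 4, 2 and 3 without week 2 A, week 2 C, week 3 A and week 3 C.

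Proteasome subunits, which form the complex that degrades ubiquitin-tagged proteins, were higher in 19 of 32 cases and lower in 1 (median 0.36), and with length offsets in 9 and 1 (median 0.22). Prosbeta5, a catalytic subunit, had 254, 253 and 291 CPM at week 3, against 166, 178 and 173 CPM at week 2 (log2FC 0.63, standard error 0.07). Rpt3, an ATPase of the regulatory particle, had 259, 286 and 293 CPM at week 3, against 168, 191 and 183 CPM at week 2 (log2FC 0.63, standard error 0.08). The replicates of both lay close together. The lid subunit gene Rpn5 fell, with 65.6, 42.8 and 55.3 CPM at week 3, against 82.1, 78.8 and 106 CPM at week 2 (log2FC -0.71). The count was 5, 10, 10 and 7 without week 2 A, week 3 A, week 3 B and week 3 C. Of the vacuolar proton pump subunits 11 of 28 were higher and 0 lower (10 and 0 with length offsets), with log2FC of 0.84 for VhaM9.7-b and 0.68 for Vha14-1. The pump count was 3, 4 and 6 without week 2 A, week 3 A and week 3 B. Autophagy genes had 5 of 22 higher and 1 lower. Atg8a, the protein that coats the autophagosome, had 641, 558 and 519 CPM at week 3, against 347, 427 and 284 CPM at week 2 (log2FC 0.70, standard error 0.19). Leaving out week 2 A, week 2 C and week 3 A, B and C gave 0, 3, 0, 3 and 2 autophagy genes higher.

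Endoplasmic reticulum stress genes had 4 of 18 higher and 2 lower, and with length offsets 7 higher and 1 lower. The number lower was 4 without week 2 B, 1 without week 2 A, week 3 A or week 3 B and 0 without week 3 C. Xbp1, the transcription factor of the unfolded protein response, had 1377, 1340.0 and 1302 CPM at week 3, against 807, 931 and 724 CPM at week 2 (log2FC 0.71, standard error 0.11), while Ire1, the sensor that splices its mRNA, fell with 37.97, 28.5 and 31.7 CPM at week 3, against 49.6, 46.5 and 66.3 CPM at week 2 (log2FC -0.73). The chaperone gene Hsc70-3 had a log2FC of -0.39 and did not pass. Gadd45, a stress gene, had 81.7, 75.6 and 85.99 CPM at week 3, against 39.5, 50.5 and 40.1 CPM at week 2 (log2FC 0.90). Weeks did not overlap in Xbp1, Ire1 and Gadd45.

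The number of energy metabolism and ribosome genes called rested on single libraries. Their medians, without length offsets, stayed above 0 in all 6 fits that left out a library. They were 0.19 to 0.38 for oxidative phosphorylation, 0.21 to 0.42 for cytosolic ribosomal proteins and 0.19 to 0.30 for mitochondrial ones. The median exonic lengths of these lists were 888, 903 and 783 bases, and all features under 1000 bases had a median log2FC of 0.23. Of 63 nuclear-encoded oxidative phosphorylation genes 13 were higher and 1 lower (median log2FC 0.31, 0.13 with length offsets), and 61 values were positive. Without week 2 B 40 were higher, and without week 2 A, week 2 C and week 3 A, B and C 1, 2, 1, 6 and 1. Cytosolic ribosomal protein genes had 13 of 83 higher, which is 15.7% and close to the 14.0% over all features, and 1 lower, with 79 positive values. There were 56 higher without week 2 B, 0, 2, 0 and 1 higher without week 2 A, week 2 C, week 3 A and week 3 C, and 4 with length offsets. The median log2FC of the cytosolic list was 0.32, and 0.12 with length offsets. The ribosomal protein gene that fell was RpS5b, a paralogue of RpS5a used in the ovary, with 259.7, 332 and 406 CPM at week 3, against 476, 552 and 692 CPM at week 2 (log2FC -0.79, standard error 0.24). Of the mitochondrial ribosomal protein genes 14 of 71 were higher and 0 lower (median log2FC 0.26). With length offsets 2 were higher and 1 lower (median 0.03). Without week 2 A, week 2 C and week 3 A, B and C the number was 2, 5, 2, 8 and 2. Ribosome biogenesis genes had 6 of 18 lower and 0 higher, led by the RNA polymerase I subunit gene Polr1A with 27.9, 17.9 and 22.2 CPM at week 3, against 44.5, 40.04 and 64.03 CPM at week 2 (log2FC -1.13). The number lower was 10 without week 2 B and 3, 2 and 2 without week 3 A, B and C.

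Of 13 glycolysis genes 7 were higher and 0 lower (median 0.39, and 0.39 with length offsets). Lactate dehydrogenase (Ldh) had 118, 90.05 and 103 CPM at week 3, against 61.3, 75.7 and 53.3 CPM at week 2 (log2FC 0.71, standard error 0.18). The glycolysis count was 0, 2, 0, 4 and 1 without week 2 A, week 2 C and week 3 A, B and C. Among genes of fat metabolism 3 of 21 were higher and 5 lower, and with length offsets 6 higher and 2 lower. The number higher was 0 without week 2 A, week 3 A or week 3 C and 2 without week 2 C. The fatty acid synthase gene FASN1 had 575, 439 and 595 CPM at week 3, against 1016, 1098 and 1038 CPM at week 2 (log2FC -0.97, standard error 0.14, edgeR adjusted p = 0.027). The acetyl-CoA carboxylase gene ACC, which supplies its substrate, fell with 436, 319 and 439 CPM at week 3, against 582, 703 and 751 CPM at week 2 (log2FC -0.77), and the lipid droplet gene Lsd-2 with 315, 219 and 324 CPM at week 3, against 452, 493 and 511 CPM at week 2 (log2FC -0.76). The weeks did not overlap, but ACC and Lsd-2 were not called with length offsets (log2FC -0.10 and -0.38), and FASN1 has no length here. The glucagon-like hormone gene Akh, which mobilizes stored fuel, rose with 27.97, 25.2 and 31.4 CPM at week 3, against 16.2, 22.01 and 12.5 CPM at week 2 (log2FC 0.74).

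Insulin and TOR signalling genes had 2 of 19 higher and 5 lower (median log2FC -0.26), and with length offsets 3 higher and 4 lower (median 0.04). The translation inhibitor Thor (4E-BP), a target of the pathway that is induced when it is low, had 553, 481 and 512 CPM at week 3, against 348, 375 and 337 CPM at week 2 (log2FC 0.54, standard error 0.07). The tuberous sclerosis genes Tsc1 and gig, which restrain TOR, had log2FC of -0.98 and -0.90, and the PI3 kinase catalytic subunit gene Pi3K92E of -1.16. All 3 were called lower with and without length offsets, at -0.68, -0.37 and -0.70 in the fit with them. The insulin-like peptide gene Ilp2 rose with 12.997, 10.8 and 14.2 CPM at week 3, against 9.39, 9.15 and 6.02 CPM at week 2 (log2FC 0.63), a call that was lost with length offsets (edgeR adjusted p = 0.16). Without week 2 B 9 genes of the list were lower, and without week 3 A, B or C 3. Leaving out any library but week 2 B gave 1 higher.

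Antimicrobial peptide genes varied widely within week 2. Of 16 antimicrobial peptide genes 2 were higher and 0 lower. With length offsets 2 were higher and 3 lower, with a median log2FC of -1.63. The summed level was 262, 496 and 626 CPM at week 3, against 609, 2853 and 89.8 CPM at week 2. Week 2 B held the highest and week 2 C the lowest value of all 6. The attacin gene AttC had 15.8, 17.2 and 90.2 CPM at week 3, against 154, 696 and 5.05 CPM at week 2 (log2FC -2.79, edgeR adjusted p = 0.17), and the diptericin gene DptB 16.4, 50.2 and 79.9 CPM at week 3, against 91.3, 474 and 2.69 CPM at week 2 (log2FC -1.95, edgeR adjusted p = 0.29). These 2 genes were picked after their values were seen. The median log2FC of the list was -1.37, 0.14 without week 2 B, where 5 genes were higher, and -1.96 without week 2 C, where 9 were lower. Defensin (Def) rose, also in all 6 fits that left out a library, with 33.2, 59.7 and 33.9 CPM at week 3, against 19.6, 16.2 and 17.6 CPM at week 2 (log2FC 1.24, standard error 0.28), and so did Drsl5, of the drosomycin family, with 74.9, 77.03 and 72.5 CPM at week 3, against 47.6, 41.9 and 33.003 CPM at week 2 (log2FC 0.87, standard error 0.15).

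The Turandot genes, whose secreted peptides accumulate after stress, had 3 of 5 higher and 0 lower. TotA had 3177, 928 and 1708 CPM at week 3, against 721, 1116 and 301 CPM at week 2 (log2FC 1.44, standard error 0.76, edgeR adjusted p = 0.093), and week 3 B lay below week 2 B, so the weeks overlapped. The number called was 0 without week 2 A, week 2 C, week 3 A or week 3 C, 5 without week 2 B and 4 without week 3 B. Among the genes of peptidoglycan recognition and immune signalling 3 of 27 were higher (11.1%) and 5 lower (18.5%), near the 14.0% and 17.3% over all features. The number lower was 2, 7, 3, 1 and 1 without week 2 A, week 2 B and week 3 A, B and C. The number higher was 0 without week 2 A, week 3 A or week 3 C and 1 without week 2 C or week 3 B, and with length offsets 2 were higher and 2 lower. The receptor gene Tl (Toll) had 13.1, 11.2 and 11.7 CPM at week 3, against 27.7, 22.8 and 60.95 CPM at week 2 (log2FC -1.64, standard error 0.43) and its ligand gene spz 10.5, 6.46 and 8.94 CPM at week 3, against 17.2, 12.7 and 28.2 CPM at week 2 (log2FC -1.17). Both genes also serve the dorsal-ventral axis of the embryo as maternal transcripts. Week 2 C was the highest sample in both, and which tissue their fall came from was not tested.

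Of 16 clock genes tested 2 were higher and 2 lower, each 12.5%, near the 14.0% and 17.3% over all features. The median log2FC was -0.23, against 0.23 with length offsets. Clk, the activator of the feedback loop, had 3.67, 2.71 and 3.94 CPM at week 3, against 8.75, 6.54 and 14.8 CPM at week 2 (log2FC -1.55, standard error 0.36, edgeR adjusted p = 0.029). The repressor of Clk, vri, had 214, 241 and 181 CPM at week 3, against 132, 141 and 122 CPM at week 2 (log2FC 0.69, standard error 0.13), and per, which inhibits the Clk protein, 48.1, 53.2 and 55.6 CPM at week 3, against 32.5, 40.8 and 31.1 CPM at week 2. Weeks did not overlap for these 3. All samples were collected within the same hours of the light cycle, so a shift of phase and a change of level cannot be told apart. The count of genes lower was 7 without week 2 B, and 1 in each of the other 5 such fits.

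Chromatin regulators of the Polycomb, Trithorax and remodelling groups had 23 of 30 lower and 1 higher (median log2FC -1.14). With length offsets 17 were lower, with a median of -0.58. The remodelling ATPase gene Iswi had 17.9, 13.5 and 16.4 CPM at week 3, against 39.1, 31.7 and 55.4 CPM at week 2 (log2FC -1.40, standard error 0.26), and its partner Acf 3.45, 4.34 and 3.37 CPM at week 3, against 16.1, 9.82 and 30.6 CPM at week 2 (log2FC -2.34, standard error 0.47). E(z), the methyltransferase of Polycomb repressive complex 2, had 20.7, 16.2 and 19.1 CPM at week 3, against 29.6, 26.2 and 39.9 CPM at week 2 (log2FC -0.77), and the Trithorax group methyltransferase gene ash1 a log2FC of -1.79. Many of these genes are known to be loaded into the egg. Week 2 C was again the highest sample in Iswi, Acf, E(z) and ash1, and it also had the strongest correlation with length, 0.57. Whether either bears on the fall was not tested. Without week 3 A, B and C the number lower was 13, 15 and 14.

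Septate junction genes, which seal epithelia, had 7 of 20 higher and 8 lower. With length offsets 6 were higher and 3 lower. The claudin genes pck and sinu rose, with 79.8, 87.9 and 86.7 CPM at week 3, against 50.7, 59.5 and 53.5 CPM at week 2 for pck (log2FC 0.64) and a log2FC of 0.62 for sinu. The scaffold gene scrib fell with a log2FC of -0.65, which was 0.17 and not called with length offsets. Leaving out week 2 A and week 3 A, B and C gave 3, 4, 4 and 4 junction genes higher and 4, 5, 4 and 2 lower. Of 12 basement membrane genes 5 were lower and 1 higher. The laminin chain gene LanB1 had 31.5, 19.6 and 22.8 CPM at week 3, against 54.6, 53.3 and 64.3 CPM at week 2 (log2FC -1.22, standard error 0.22, edgeR adjusted p = 0.027). The chain genes LanA and LanB2 had log2FC of -1.28 and -1.20. With length offsets the 3 were at -0.66, -0.50 and -0.69, still called, while the 2 collagen IV genes Col4a1 and vkg had log2FC of -0.11 and -0.18 and were not called in either fit. The median of this list was -0.15 without and 0.36 with length offsets. Of the ecdysone genes 1 of 15 was higher and 2 lower, and with length offsets 4 higher and 1 lower. Across the 6 fits that left out a library 0 to 2 ecdysone genes were higher and 0 to 5 lower, with 0 higher without week 2 A, 2 higher without week 2 C, 5 lower without week 2 B, 1 lower without week 2 A, week 3 A or week 3 B and 0 lower without week 3 C. Of 10 juvenile hormone genes 0 were called by edgeR, with 2 at an unadjusted p under 0.05 and 0 called by DESeq2, though 2 were higher and 1 lower without week 2 B.

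**Figure D4:**
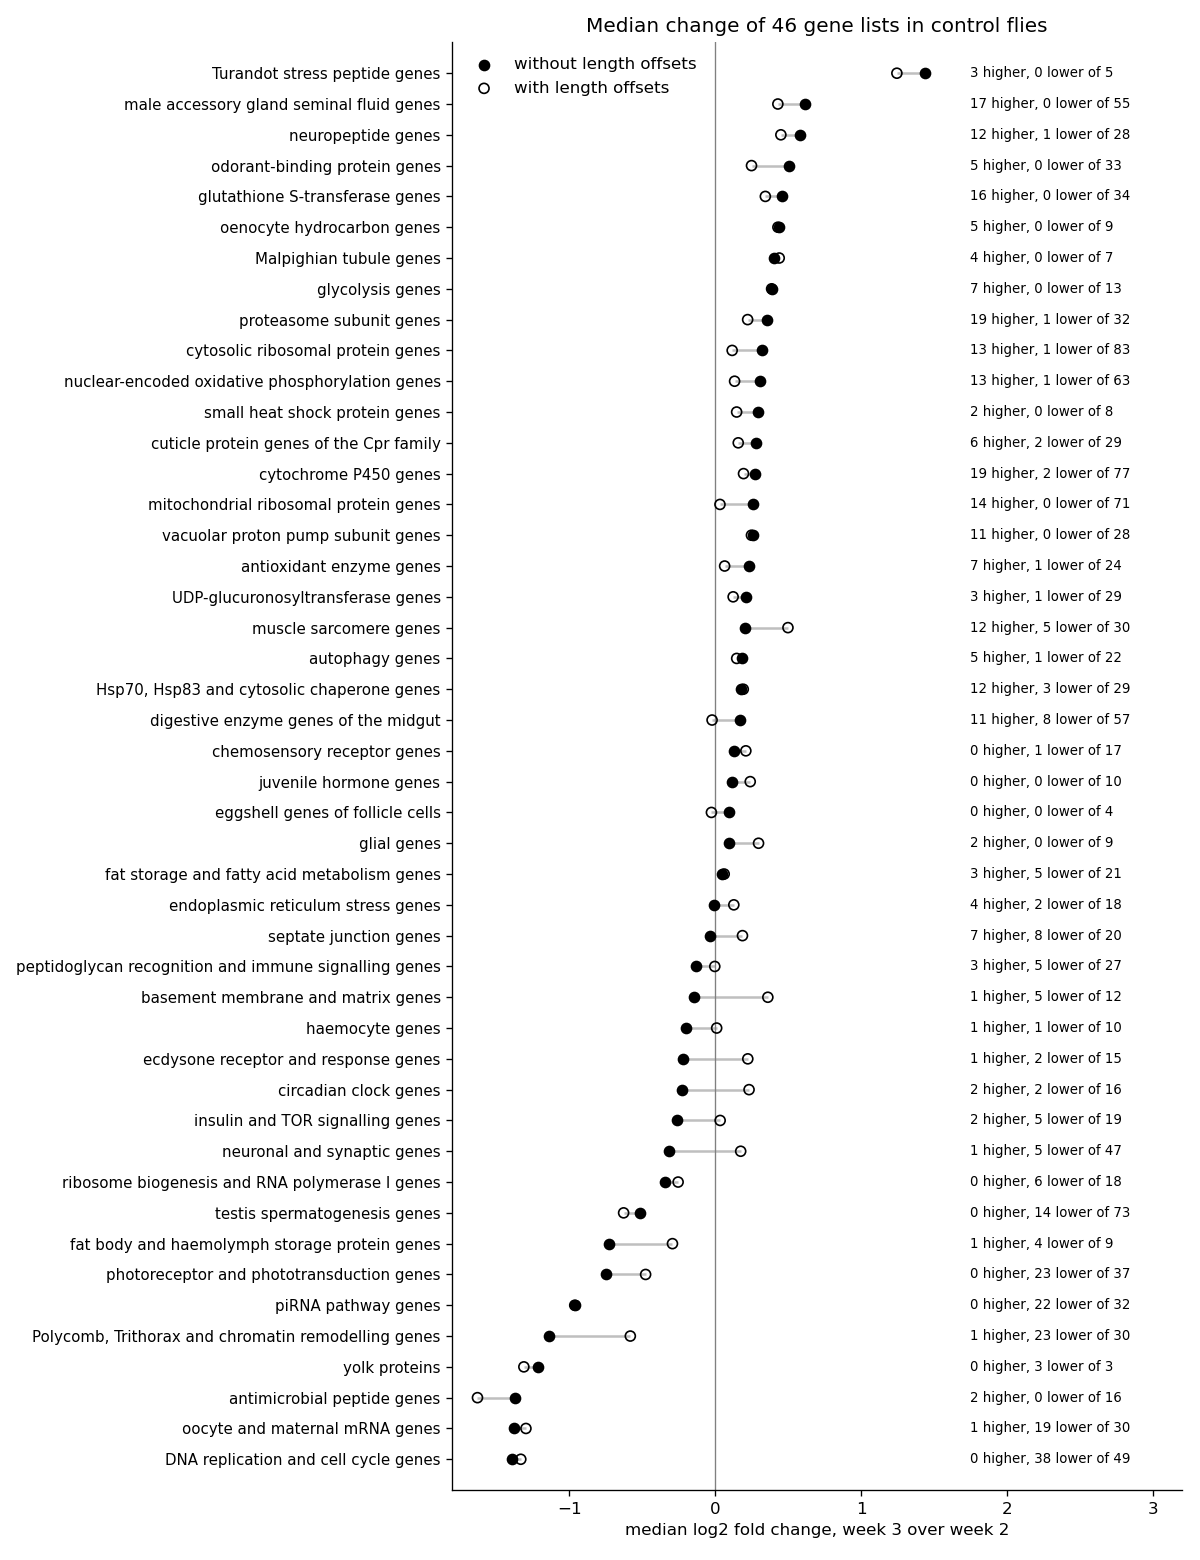
Median log2FC of week 3 over week 2 for each of the 46 gene lists, without length offsets (filled) and with them (open), with the number of features called higher and lower of those tested on the right. Among lists with genes called lower, replication and oocyte genes have the lowest filled points. The lowest open point is that of the antimicrobial peptide genes (-1.63). The open points of neuronal, clock, ecdysone and basement membrane genes lie on the other side of 0 from the filled ones.

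Several genes with the smallest p or the largest change belong to none of these lists. Among those that rose, CG2656 had 221, 209.8 and 212 CPM at week 3, against 65.7, 90.3 and 60.4 CPM at week 2 (log2FC 1.57, standard error 0.18) and CG34040 90.9, 86.8 and 91.3 CPM at week 3, against 31.5, 25.8 and 37.3 CPM at week 2 (log2FC 1.51, standard error 0.15). The chitin-binding protein gene CG7017 had 15.9, 18.4 and 9.69 CPM at week 3, against 2.76, 3.11 and 3.33 CPM at week 2 (log2FC 2.26). BaraB, a relative of the antifungal Baramicin A, had 35.1, 18.1 and 28.1 CPM at week 3, against 5.39, 10.2 and 4.55 CPM at week 2 (log2FC 2.02), and amd, an enzyme gene of catecholamine metabolism and the cuticle, 7.57, 12.6 and 8.37 CPM at week 3, against 3.57, 2.38 and 2.57 CPM at week 2 (log2FC 1.74). In all of them each week 3 value was above each week 2 value. Others among the genes of smallest p or largest change were CG5676, CG4363, CG13646, CG12517 and CG15721, with log2FC from 1.01 for CG5676 to 2.11 for CG13646. Among those that fell, Root, the rootletin of sensory cilia, had 5.26, 4.77 and 7.19 CPM at week 3, against 21.1, 20.3 and 16.6 CPM at week 2 (log2FC -1.75, standard error 0.20). The merged feature of Ank2, a neuronal ankyrin gene, and CG44195 had 5.54, 5.099 and 4.94 CPM at week 3, against 25.01, 19.9 and 35.5 CPM at week 2 (log2FC -2.37), and the ABC transporter gene Mrp5 47.9, 51.1 and 47.3 CPM at week 3, against 98.6, 96.9 and 127 CPM at week 2 (log2FC -1.14). CG10254 and CG13492 had log2FC of -1.96 and -1.27. With length offsets these 5 were still called, at -1.16, -1.44, -0.53, -1.46 and -0.57.

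The relation to length can be read from classes of exonic length. Of 2278 features under 1000 bases 21.9% were higher and 1.32% lower, with a median log2FC of 0.23. From 1000 to 2000 bases 18.2% of 3959 were higher and 6.01% lower, and from 2000 to 4000 bases 11.7% of 3585 were higher and 20.6% lower. From 4000 to 8000 bases 2.47% of 1698 were higher and 46.9% lower, and of 462 features of 8000 bases or more 0.433% were higher and 54.3% lower, with a median of -0.78. Features that rose had a median length of 1386 bases, and those that fell of 4062 bases, against 1911 bases for all tested. In the fits without and with length offsets 2540 features, of which 1164 were higher and 1376 lower, were called in the same direction. The log2FC of 123 features called lower became positive. Lists were also split at the median length of all features. Of 19 longer sarcomere genes 5 rose and 4 fell, against 6 and 1 of 10 shorter ones. Of the Polycomb, Trithorax and remodelling genes 22 of 27 longer members fell (median -1.21), against 1 of 3 shorter ones (median 0.13). Among the photoreceptor genes 18 of 25 longer members fell (median -0.91), against 5 of 12 shorter ones (median -0.21). For DNA replication 30 of 35 longer genes fell (median -1.56), against 6 of 12 shorter ones (median -0.95), and for the piRNA pathway 20 of 22 (median -1.07), against 2 of 10 (median -0.70). The oocyte genes had medians of -1.36 for 22 longer and -1.45 for 8 shorter members, of which 16 and 3 fell.

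The same weeks can be compared in CCM flies, whose 6 samples are separate from those of the control flies. There 3259 features (26.4%) were higher and 3660 (29.6%) lower at week 3 of 12348 tested. Across the 12158 features tested in both, the correlation between the log2FC of control flies and of CCM flies was 0.86 (Pearson) and 0.88 (Spearman). This is a description across genes, which are not independent, of groups that share the weeks of collection and the trend with length, and with length offsets in both the Pearson correlation was 0.82. Of 1705 features higher in control flies 1452 (85.2%) were also called higher in CCM flies, which is 44.8% of the 3238 called there, and of 2110 lower 1989 (94.3%) were also lower, which is 54.7% of 3635. The test of the difference between the changes (the interaction term in edgeR, adjusted in the same way) gave 0 of 12530 features, with 570 (4.55%) at an unadjusted p under 0.05, and DESeq2 gave 1. No gene is therefore described as particular to the control flies.

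**Figure D5:**
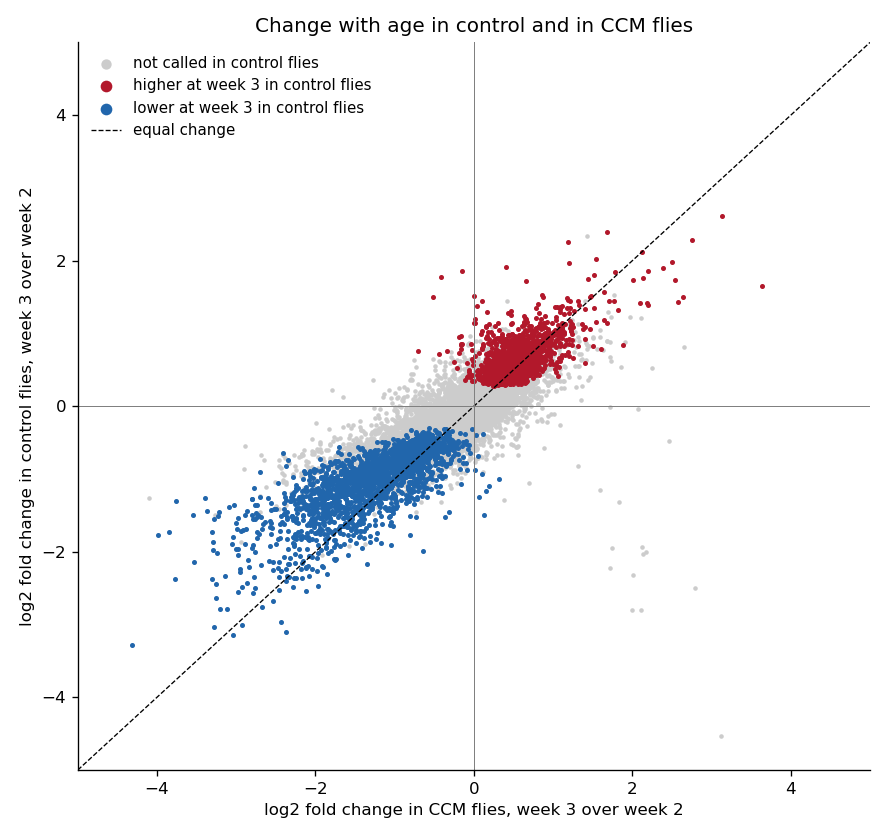
Log2FC of week 3 over week 2 in control flies (vertical) against that in CCM flies (horizontal) for the 12158 features tested in both, with features called higher in control flies in red, called lower in blue and the others in grey. Most points lie along the dashed line of equal change, and the grey points at the lower right include antimicrobial peptide genes such as AttC.

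Values of both groups side by side show where the members described above lay in CCM flies. The log2FC of Yp3 was -2.09 in control flies and -1.98 in CCM flies, that of chp -1.78 and -2.17, that of osk -1.92 and -2.27 and that of Hsp67Bb--Hsp22 2.62 and 3.13. For Hsp70Aa--Hsp70Ab it was 1.65 and 3.64, and for AttC -2.79 and 2.12, of which the second pair was not called in either. Seminal fluid genes had 17 of 55 higher in control flies and 14 in CCM flies, with medians of 0.62 and 0.24. In neuronal genes the medians were -0.32 and -1.02, with 5 and 33 of 47 called lower. By the smallest p for the difference the leading genes were AsnS, Ugt50B3, dpy, CG43102, igl, shot, CG8299, Tango14, Alr and CheB38c, each with an edgeR adjusted p of 0.913 or more. The dumpy gene dpy, a giant matrix protein, had 8.08, 6.13 and 6.19 CPM at week 3, against 12.6, 9.32 and 10.02 CPM at week 2 in control flies, a log2FC of -0.65 against -2.40 in CCM flies.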

How the data were processed

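RNA of whole flies was sequenced in 12 samples, of which the 6 of control flies were analysed here and the 6 of CCM flies served for comparison. The authors aligned paired reads to the dm6 genome with STAR, left non-coding genes out of the annotation and deposited raw counts per feature made with MMquant, which assigns reads shared by several genes to a merged feature. The versions of these tools are not given in the sources used here. The 14413 features comprised 13240 single genes and 1173 merged ones. Names, exonic lengths and positions of 13025 single genes came from the BDGP6.54 annotation of the same assembly, and symbols of 52 more from gene names that the study gives.

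Counts were tested with edgeR 4.0.16 in R 4.3.3 (filterByExpr, TMM normalization, quasi-likelihood test, two-sided, Benjamini-Hochberg adjusted p under 0.1, no limit on fold change), with 3 samples per week fitted alone. CPM are counts per 1000000 of the TMM-normalized library. Standard errors are those of the difference of mean log2(CPM + 0.5) over 3 replicates. Coordinates are 1-based. The study describes the samples as biological replicates. Length offsets were per-sample lowess curves (span 0.3) of the log2 deviation on log2 exonic length. Features with no length were given the median length. Tested on simulated counts, the edgeR test recovered 57% of 200 features changed by a log2FC of 1 and 1.5% of 200 changed by 0.585. At a log2FC of 1, 17 of its 131 calls were false. Only 200 of 12094 simulated features were changed there, against 3821 of 12200 called in the data. The adjusted p depends on that share, so the recovery in the data was not measured.

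The 46 gene lists and the genes named were chosen with earlier results of these data known. Genes are named if they had the 10 smallest p or the 10 largest log2FC in each direction (called, groups not overlapping, for size at least 5 CPM), were among the 4 members of a list with the smallest p, defined a list, or were among the 5 with the smallest p in each direction for the difference from CCM flies. Other members are named for their role and were added after their values were seen. Of the symbols and patterns in the lists 25 were not matched and were not analysed here. Alternatives were DESeq2 1.42.0, RLE normalization, no filter, replicate letter as a block, length offsets, all 12 samples in a single fit, single-gene features, a threshold of 0.05 and leaving out each replicate.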

Additional observations from a re-analysis of the deposited data

How the results depend on the processing

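The number of features called in control flies was 4243 with DESeq2, 3806 with RLE normalization, 3574 without a filter, 3317 with length offsets, 5159 with all 12 samples in a single fit and 3694 with single-gene features. It was 2047 at an adjusted p under 0.05 (812 higher and 1235 lower) and 1315 to 4953 when each replicate was left out. Replicate letters were not used as pairs, since the study does not say that samples are paired. Deviations of same-letter samples had correlations of 0.02, -0.12 and 0.13. With the letter as a replicate block 3032 features were called, 1080 higher and 1952 lower, and with length offsets and the replicate block 3145. DESeq2 called 1 feature for the difference from CCM flies, against 0 with edgeR. Of 178 named genes, the block left 169 on the same side of the threshold, RLE 178 and length offsets 151. In single replicate omissions 151 of 1068 gene values were no longer past it.

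Length offsets, without and with the replicate block, turned the sign of Apoltp (0.046 and 0.042), Bace (-0.069 and -0.069), SP (-0.11 and -0.17), brp (0.062 and 0.078), cnc (0.076 and 0.070), dpy (0.23 and 0.34), elav (0.73 and 0.72), moody (0.26 and 0.28), scrib (0.17 and 0.20), Col4a1 (0.40 and 0.45) and vkg (0.35 and 0.41). Strn-Mlck had 0.0031 with both. CG43102, called lower with a log2FC of -0.56 (edgeR adjusted p = 0.047), had 0.18 with length offsets and was not called (edgeR adjusted p = 0.53). Over single replicate omissions the log2FC of DptB was -2.55 to 0.027, of SP -0.32 to 0.79, of alrm -0.025 to 0.18, of elav -0.27 to 0.19, of moody -0.072 to 0.048 and of Col4a1 -0.23 to 0.0075. The list medians that changed sign with length offsets were those of eggshell, neuronal, digestive, haemocyte, endoplasmic reticulum stress, insulin, clock, septate junction, basement membrane and ecdysone genes. The cause of these changes was not tested. Features without a known length, among them FASN1, wupA and CG13646, were shifted by the offsets as if of median length. With 3 samples per week an exact permutation test of a single value cannot go below p = 0.1.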
